A study of Rattus norvegicus with 6 samples.

Results

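Rtel1 encodes a DNA helicase that keeps chromosome ends replicable, and it was described here beside the genes that work with it at telomeres in the rat aorta. The group was set by name: 10 genes of telomere maintenance (Rtel1, Tert, Terf1, Terf2, Pot1, Tinf2, Acd, Dkc1, Blm and Wrn), each taken if a probe set of the array was annotated with that gene alone. Of the 10, 7 were measured, each by 1 probe set, among 18166 genes named in the table. Dkc1, Blm and Wrn were not analysed here. Rtel1 was chosen by its difference between the strains in an earlier analysis of the same values, so that difference is given as a description without a test. The other 6 were chosen for their function.

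The RNA came from the thoracic aorta of SHR, the spontaneously hypertensive rat, in which blood pressure climbs with age, and of the Wistar-Kyoto rat (WKY), its usual normotensive control. All rats were 24 weeks old and had no treatment beyond a tail blood pressure measurement, and the vessels had been freed of fat and connective tissue before freezing. Each strain had 3 Affymetrix Rat Gene 2.0 ST arrays, 6 in all. No label ties an array to an animal, so the p-values cover the variation between arrays of a strain, part or all of which may be technical.

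Telomeres are repeats of a short sequence that cap linear chromosomes. Shelterin, a protein complex, coats them: Terf1 and Terf2 bind the double-stranded repeats, Pot1 the single-stranded overhang, and Tinf2 and Acd bridge these parts. Telomerase, with the catalytic subunit Tert and the RNA template Terc, adds repeats in germ and stem cells and is low in most differentiated adult tissue. In mouse and human cells RTEL1 unwinds the loop in which a telomere end is tucked away, with TRF2, the product of Terf2, recruiting it, and it also removes secondary structures ahead of the replication fork. Inherited loss of function of RTEL1 in humans causes short telomeres.

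The windows before an annotated start of Rtel1 and Tinf2 are shown because the RNA of Rtel1 separated the strains and that of Tinf2, a shelterin bridge with a window outside its own gene, did not. Both hold the 250 bases before a start, 5′ to 3′ on the strand of the gene, from RefSeq on GRCr8, and the capitals mark matches to the 5 motifs named after them. The Rtel1 window lies at chr3:188807748-188807997 on the plus strand and the Tinf2 window at chr15:33146931-33147180 on the minus strand.
Rtel1: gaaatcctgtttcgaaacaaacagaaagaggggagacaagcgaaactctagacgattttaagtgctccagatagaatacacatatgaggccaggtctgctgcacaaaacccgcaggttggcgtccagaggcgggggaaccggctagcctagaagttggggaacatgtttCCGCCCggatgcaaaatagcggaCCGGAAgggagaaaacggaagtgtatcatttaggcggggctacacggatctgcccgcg
Tinf2: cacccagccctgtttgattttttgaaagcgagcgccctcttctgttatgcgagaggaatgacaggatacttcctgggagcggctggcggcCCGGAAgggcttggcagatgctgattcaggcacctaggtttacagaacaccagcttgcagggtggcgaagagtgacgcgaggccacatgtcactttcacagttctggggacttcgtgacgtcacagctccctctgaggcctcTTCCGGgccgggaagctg
The motifs were the GC box GGGCGG, the E-box CACGTG, the CCAAT box CCAAT, the ETS core CCGGAA and the telomere repeat TTAGGG, each searched on both strands. The Rtel1 window had 1 GC box and 1 ETS core, and none of the other 3. The Tinf2 window had 2 ETS cores and none of the other 4. Among 33469 windows of the same length, 30.5% held the GC box, 5.59% the E-box, 34.0% the CCAAT box, 12.6% the ETS core and 9.15% the telomere repeat. A match is a run of letters and not a binding site. Both windows come from the same reference build, and whether they differ between SHR and WKY was not tested. The Rtel1 window lies inside the RefSeq span of the gene, which begins farther out, where it overlaps Gmeb2. Which start is used in these aortae was not measured.

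The array values are log2 levels, so a difference of 1 is a 2-fold ratio of measured levels, and the level of 1 probe set cannot be set against that of another. Rtel1 had log2 levels of 5.26, 5.29 and 5.60 on SHR replicates 1 to 3, against 3.78, 3.99 and 3.77 on WKY replicates 1 to 3. All 3 SHR arrays lay above all 3 WKY arrays, and the gap between the nearest arrays was wider than the spread within either strain. The mean was 5.38 ± 0.19 in SHR and 3.85 ± 0.13 in WKY (SD, n = 3 each), a difference of 1.54 ± 0.16 (SE), or a ratio of measured levels of 2.90. The 95% interval of the difference ran from 1.16 to 1.91. These are the values for which the gene was picked, and 0.0693% of the 21659 probe sets tested were called at an adjusted p under 0.05 in the limma fit of the whole table, 0.0600% (13) higher and 0.00923% (2) lower in SHR. Rtel1 lay above the median of each array on all 6 arrays. In whole aorta a change in the number of cells that express a gene and a change of RNA per cell cannot be told apart.

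With each array left out in turn, the difference of Rtel1 lay between 1.43 (without SHR replicate 3) and 1.61 (without WKY replicate 2). It was 1.50 without WKY replicate 3, an array with a narrower range of values than the others. The Rtel1 result rests on 1 probe set. Whether a sequence difference between the strains lies under its probes was not tested. No source used here gives the exons that its probes cover.

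**Figure D1:**
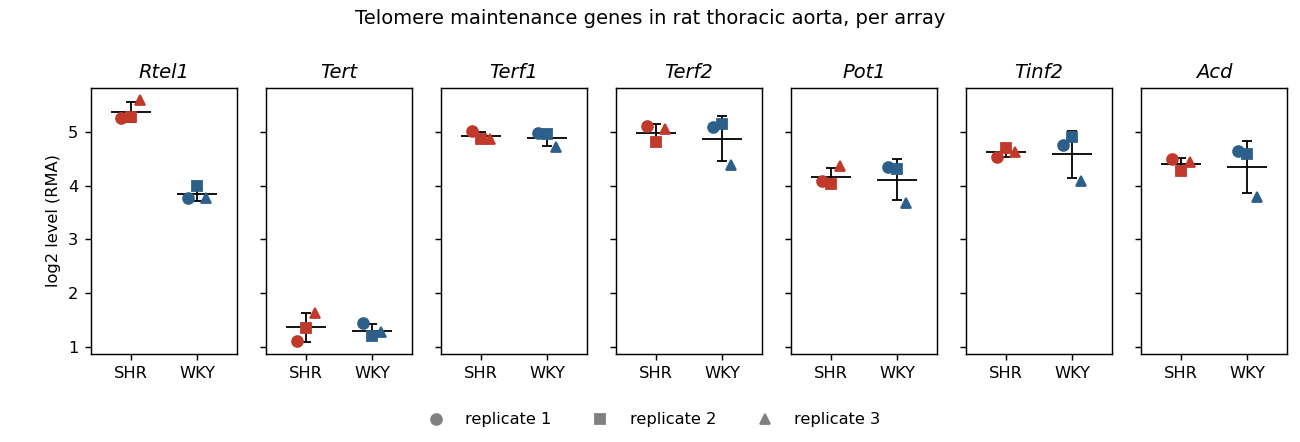
Log2 levels (RMA) of the 7 measured telomere genes on each array, SHR in red and WKY in blue, with the mean and SD of 3 arrays in black. Rtel1 lay at 5.26 to 5.60 in SHR and 3.77 to 3.99 in WKY, whereas the strains overlap for the other 6 genes. Heights are not comparable between genes.

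Tert, the catalytic subunit of telomerase, had log2 levels of 1.10, 1.35 and 1.63 in SHR and 1.43, 1.20 and 1.26 in WKY. The strains overlapped, and the difference was 0.06 ± 0.18 (SE; limma adjusted p = 0.969). Tert lay below the median of every array, 2.29 to 2.52, so its values are not shown to lie above background and nothing follows from them about telomerase RNA in the wall. The table has no detection call. SHR replicate 3 had the highest value and SHR replicate 1 the lowest of the 6, so the 2 extremes fell in the same strain. Without SHR replicate 3 the difference was -0.07.

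The 5 shelterin genes overlapped between the strains. Terf1, which binds double-stranded repeats, had log2 levels of 5.03, 4.88 and 4.87 in SHR and 4.99, 4.97 and 4.73 in WKY, a difference of 0.03 ± 0.15 (SE; limma adjusted p = 0.983). Terf2, which binds the same repeats and holds the end in its loop, had 5.12, 4.81 and 5.05 in SHR against 5.11, 5.15 and 4.40 in WKY, a difference of 0.11 ± 0.23 (limma adjusted p = 0.962). For both genes WKY replicate 3 was the lowest of the 6 arrays, and the other 2 WKY arrays lay within the SHR range or just above it.

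Pot1, which covers the single-stranded overhang, had log2 levels of 4.10, 4.03 and 4.36 in SHR and 4.35, 4.31 and 3.68 in WKY (difference 0.05 ± 0.22 SE; limma adjusted p = 0.983). Tinf2, the bridge whose window is printed above, had 4.54, 4.71 and 4.63 in SHR and 4.77, 4.91 and 4.09 in WKY (0.04 ± 0.23; limma adjusted p = 0.986). Acd, which encodes TPP1 and draws telomerase to the end, had 4.51, 4.27 and 4.44 in SHR and 4.66, 4.60 and 3.80 in WKY (0.05 ± 0.25; limma adjusted p = 0.983). The same array stood out each time: in Tinf2 and Acd both other WKY arrays were above all 3 SHR arrays, and WKY replicate 3 was below them.

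By limma, 0 of the 6 members other than Rtel1 were called, and 0 had an unadjusted p under 0.05. Over all tested probe sets 0.0693% were called and 5.55% had an unadjusted p under 0.05, so a count of 0 among 6 is what the background gives. For the shelterin genes the 95% intervals of the difference in measured level ran from -0.32 to 0.37 for Terf1, -0.43 to 0.65 for Terf2, -0.46 to 0.56 for Pot1, -0.50 to 0.57 for Tinf2 and -0.52 to 0.63 for Acd.

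The small differences of the 5 shelterin genes turned below 0 without WKY replicate 3. It was the lowest of the 6 arrays for 6 of the 7 measured members, Rtel1 included, with Tert the exception. The SD of its values was 2.12, where the other 5 arrays had 2.22 to 2.27. Its fitted array weight was 0.22, where theirs ran from 0.69 to 2.05. With all arrays the 6 members other than Rtel1 had differences above 0. Without WKY replicate 3 only Tert did, and the differences were 0.05 for Tert, -0.05 for Terf1, -0.14 for Terf2, -0.17 for Pot1, -0.21 for Tinf2 and -0.22 for Acd. None was called in either fit, with limma adjusted p from 0.806 to 0.976 without that array.

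**Figure D2:**
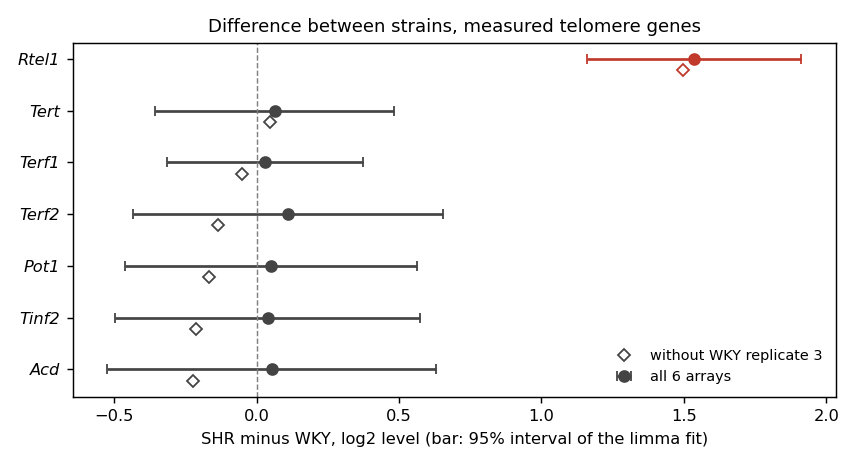
SHR minus WKY in log2 level for the 7 measured telomere genes, with filled points and 95% intervals from the limma fit of all 6 arrays and open diamonds for the difference without WKY replicate 3. Rtel1 lies at 1.54, or 1.50 without that array, while the 5 shelterin genes move from just above 0 to between -0.22 and -0.05.

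The genes beside Rtel1 on its chromosome were compared to see whether they differed in the same way. They were the 5 nearest measured genes on either side in the RefSeq order. Gmeb2, a DNA-binding factor of glucocorticoid-responsive genes whose annotated span overlaps that of Rtel1, had log2 levels of 4.64, 4.62 and 4.58 in SHR and 4.88, 4.75 and 4.25 in WKY, a difference of -0.01 ± 0.19 (SE; limma adjusted p = 0.993). Stmn3, a stathmin of neurons that lies within the span of Rtel1, had 2.19, 1.49 and 1.76 in SHR and 1.43, 1.37 and 1.67 in WKY (0.32 ± 0.21; limma adjusted p = 0.923), below the median on every array. Arfrp1, a small GTPase of the Golgi and the next measured gene on the far side, lay at 4.84 to 5.24 in SHR and 4.96 to 5.24 in WKY (-0.01 ± 0.17; limma adjusted p = 0.993). The strains overlapped for these 3 genes, the closest to Rtel1.

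Further out, 3 of the 9 tested neighbours had strains that did not overlap, 1 higher and 2 lower in SHR, against 12.1% of all tested probe sets (6.48% higher and 5.61% lower). Tpd52l2 lay at 5.54 to 5.67 in SHR and 5.24 to 5.48 in WKY (difference 0.24; limma adjusted p = 0.923). The tyrosine kinase genes Ptk6 and Srms lay on the other side, at differences of -0.34 and -0.53 (limma adjusted p = 0.889 and 0.899), and Ptk6 was below the median on every array. Without WKY replicate 3 the difference of Srms was -0.29. Helz2, Zbtb46 and Abhd16b had differences of -0.23, -0.09 and -0.10. By limma 0 of the 9 were called and 2, Ptk6 and Srms, had an unadjusted p under 0.05. Over all tested probe sets these shares were 0.0693% and 5.55%, so a count of 0 called among 9 is what the background gives. Fndc11 was too dim to be tested. The median difference of the 9 was -0.09, against -0.01 over all tested probe sets, and their 95% intervals reached from -1.06 (Srms) to 0.81 (Stmn3).

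**Figure D3:**
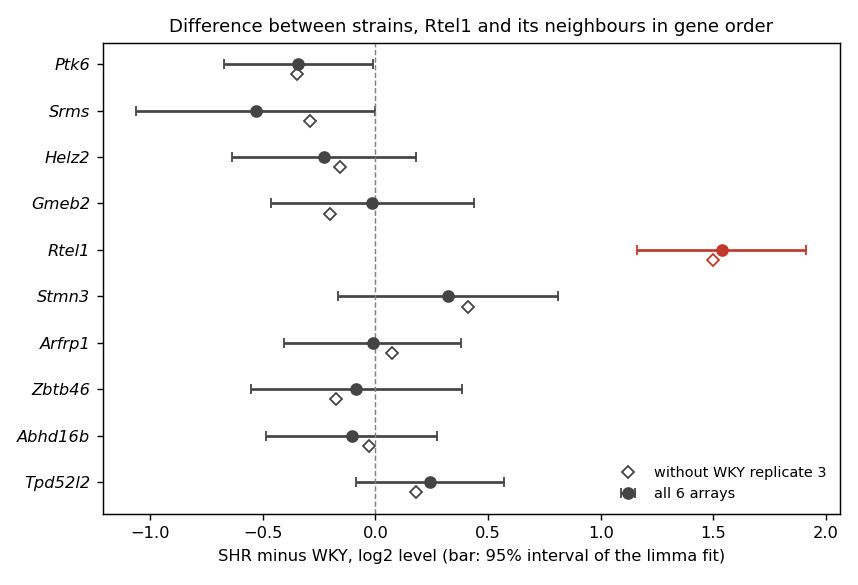
SHR minus WKY in log2 level for Rtel1 and its 9 tested neighbours, from top to bottom in the order of the genes along the chromosome. Filled points and bars are the difference and 95% interval over 6 arrays and open diamonds the difference without WKY replicate 3. The adjacent Gmeb2, Stmn3 and Arfrp1 lie at -0.01, 0.32 and -0.01 beside Rtel1 at 1.54.

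The wider pathway was described by 7 lists that hold 79 genes, of which 66 were measured. Apart from Rtel1, 63 were tested, the 6 other members included, and 2 (Exo1 and Gen1) were too dim. By limma 0 of the 63 were called in either direction and 2 had an unadjusted p under 0.05 (Rmi1 and Mre11). Over all tested probe sets 0.0693% were called and 5.55% had an unadjusted p under 0.05. A count of 0 called is what this background gives, here and in each list below. The strains did not overlap for 6 of them, 3 higher and 3 lower in SHR, a share of 9.52% against 12.1% of all tested probe sets. The median difference was 0.06 with 45 of 63 above 0, where 48.0% of all tested probe sets were above 0. Without WKY replicate 3 the median was -0.02 with 28 of 63 above 0, where 50.8% of all tested probe sets were. By list, the median without that array was -0.14 for shelterin, 0.012 for telomerase, -0.047 for CST and primase, -0.014 for RecQ helicases, 0.092 for iron-sulphur helicases, 0.0054 for nucleases and -0.0035 for damage signalling.

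Rtel1 belongs to a small family of helicases that carry an iron-sulphur cluster, which is put in place by a cytosolic assembly machinery. Among the 4 tested genes of that list other than Rtel1 the differences ran from -0.17 to 0.37. Brip1, the family member that acts in crosslink repair, lay at 2.47, 2.82 and 2.92 in SHR and 2.30, 2.68 and 2.12 in WKY (difference 0.37; limma adjusted p = 0.923). The assembly factors Ciao2b and Ciao3 differed by 0.22 and -0.17 (limma adjusted p = 0.923 and 0.925), and Ciao1 by 0.12. Without WKY replicate 3 Brip1 differed by 0.25 and Ciao1 by 0.023. Ddx11, Ercc2 and Mms19 were not analysed here.

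Of the RecQ helicases and the partners with which Blm resolves joined DNA strands, 5 genes were tested. Rmi1, a scaffold of that complex, had log2 levels of 4.77, 4.73 and 4.67 in SHR and 4.42, 4.28 and 4.07 in WKY. All SHR arrays were above all WKY arrays, but the difference of 0.47 ± 0.15 (SE) was not called (limma adjusted p = 0.741, the smallest of the 63). The helicase Recql5 was at 2.49 to 2.62 in SHR and 2.23 to 2.37 in WKY (0.27; limma adjusted p = 0.923). Recql4 was at 1.49 to 1.64 in SHR and 1.76 to 1.98 in WKY (-0.27; limma adjusted p = 0.923) and below the median on every array.

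Of telomerase and the factors that assemble it, 15 genes were tested and 0 were called, with a median difference of 0.07. Terc, the RNA template, had log2 levels of 3.31, 3.64 and 4.12 in SHR and 4.03, 4.23 and 4.35 in WKY. SHR replicate 3 lay within the WKY values and the other 2 SHR arrays below them, for a difference of -0.51 ± 0.23 (SE; limma adjusted p = 0.919). Shq1, an assembly chaperone, was at 2.15 to 2.47 in SHR and 2.48 to 2.78 in WKY (-0.35; limma adjusted p = 0.921). Pinx1, an inhibitor of telomerase, differed by 0.45 (limma adjusted p = 0.923), and by 0.15 without WKY replicate 3.

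The 2 remaining shelterin genes were Terf2ip, which encodes RAP1, the partner of TRF2, and Pot1b, a rodent copy of Pot1. Terf2ip lay at 4.61 to 4.75 in SHR and 4.63 to 4.64 in WKY (0.06; limma adjusted p = 0.963). Pot1b lay at 1.18 to 2.09 in SHR and 1.47 to 1.79 in WKY (0.01; limma adjusted p = 0.997), below the median on every array, and whether its probes also read Pot1 was not tested. Over the 7 shelterin genes the median difference was 0.05 with all arrays and -0.14 without WKY replicate 3.

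The CST complex and DNA polymerase alpha-primase fill in the strand that telomerase does not extend. Of their 7 tested genes 0 were called. Pola2, a polymerase subunit, was lower on all SHR arrays, at 2.61 to 2.87 in SHR and 2.89 to 3.18 in WKY (-0.35 ± 0.16 SE; limma adjusted p = 0.919). The primase genes Prim1 and Prim2 lay on the other side, at differences of 0.35 and 0.31 (limma adjusted p = 0.923 each), and a dimmer probe set of Prim1 gave 0.44. Without WKY replicate 3 the difference of Prim2 was 0.087.

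Nucleases and replication helpers had a median difference of 0.04 over 10 tested genes, 0 of them called. Pcna, the replication clamp that RTEL1 binds in mouse and human cells, lay at 6.22, 6.15 and 5.80 in SHR and 5.83, 6.08 and 5.04 in WKY (0.41; limma adjusted p = 0.923). Without WKY replicate 3 it differed by 0.10. The helicase Pif1 and the nuclease Mus81 differed by -0.19 and -0.12 (limma adjusted p = 0.929 and 0.936). The partner Slx4 was not analysed here.

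Genes that sense or join broken ends had a median difference of 0.07 over 15 tested genes, 0 of them called. Mre11, the nuclease of the break sensor, had log2 levels of 4.91, 5.04 and 4.81 in SHR and 4.53, 4.58 and 4.46 in WKY. The strains did not overlap, and the difference was 0.40 ± 0.14 (SE; limma adjusted p = 0.819), while its partners Rad50 and Nbn differed by 0.07 and 0.26 (Nbn by 0.067 without WKY replicate 3). Cdkn1a, the p21 inhibitor that short telomeres induce through p53, lay at 4.69 to 5.09 in SHR and 4.53 to 4.78 in WKY (0.28; limma adjusted p = 0.923). Xrcc6, the Ku70 subunit of end joining, differed by -0.31 (limma adjusted p = 0.923).

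**Figure D4:**
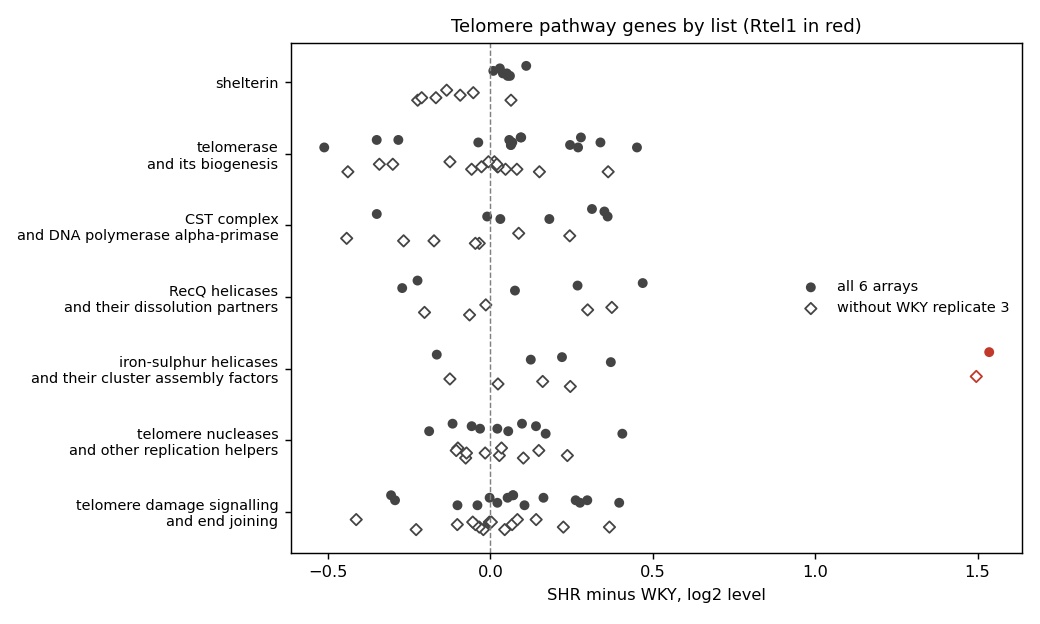
SHR minus WKY in log2 level for the tested genes of 7 telomere pathway lists, 1 point per gene, as filled circles over 6 arrays and open diamonds without WKY replicate 3, with Rtel1 in red. Rtel1 lies at 1.54 and the other 63 genes between -0.51 and 0.47.

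Helicases of this kind act during replication, so the level of proliferation markers was set beside Rtel1. The mean log2 level of 11 measured markers was 2.35, 2.32 and 2.45 in SHR and 2.15, 2.14 and 2.07 in WKY, so the strains did not overlap. The marker Mki67, a nuclear antigen of cycling cells, lay at 3.43, 3.13 and 4.00 in SHR and 2.53, 2.60 and 2.47 in WKY (difference 0.98 ± 0.23 SE; limma adjusted p = 0.463). Mki67 had the largest difference of the list, followed by Tpx2 and Rrm2 at 0.73 and 0.65. Of the 11, 8 had a difference above 0, where 48.0% of all tested probe sets did. Mcm2, Mcm5 and Aurkb lay below 0, at -0.05, -0.28 and -0.05. For 3, Mki67, Tpx2 and Rrm2, the strains did not overlap and SHR was higher, where 6.48% of all tested probe sets were so. On every array 5 of the 11 lay below the median, namely Top2a, Ccnb1, Cdk1, Rrm2 and Aurkb. Tpx2 was above it on only 2 arrays. A dimmer probe set of Rrm2 gave 0.40, also without overlap. A dimmer probe set of Mcm3 gave 0.65 without overlap, where the brighter one gave 0.10 with overlap. Rtel1, Mki67 and the mean of the list were each highest on SHR replicate 3 and lowest on WKY replicate 3. For Rtel1 the lowest value, 3.77, was close to the 3.78 of WKY replicate 1. Only 3 of the 11 markers were highest on SHR replicate 3, and Cdk1 and Aurkb were highest on WKY replicate 3. The part of proliferating cells in the Rtel1 difference was not tested.

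By the mean of its genes, no other marker list separated the strains. Single genes did. Lower in SHR without overlap were Ckm, Acta1 and Tnnt3 of skeletal and cardiac muscle, at -0.70, -0.51 and -0.39. So was Pi16 of fibroblasts, at -1.54. Higher without overlap were Dio2 of brown adipocytes and Cd2 of lymphocytes, at 0.73 and 0.17. None was called (limma adjusted p from 0.577 to 0.923). Over all tested probe sets 5.61% were lower and 6.48% higher without overlap. Smooth muscle markers lay at 9.33 to 9.68 in SHR and 9.55 to 9.71 in WKY, and the defining Myh11 and Tagln lay far above the median of every array, at means of 10.8 and 11.4 over the 6 arrays. White adipocyte markers ranged more widely, at 4.31 to 7.62 in SHR and 6.10 to 7.29 in WKY, as did endothelial ones, at 4.01 to 6.16 in SHR and 5.33 to 6.04 in WKY. Macrophage markers lay at 3.30 to 5.70 in SHR and 4.14 to 5.11 in WKY, and fibroblast markers at 7.80 to 9.02 in SHR and 8.58 to 8.78 in WKY. In each of these 4 lists SHR replicate 3 was lowest and SHR replicate 1 highest. Brown adipocyte markers lay at 3.07 to 4.63 in SHR and 3.92 to 5.61 in WKY. Among them Ucp1 ran from 1.74 on SHR replicate 3 to 9.43 on WKY replicate 1, a difference of -2.41 with the strains overlapping. Dio2 went the other way without overlap, at 2.76 to 3.45 in SHR and 2.32 to 2.37 in WKY, and was the only 1 of the 5 above 0. Elovl3, and Cd3d of the lymphocyte list, were too dim to be tested but entered the means. The part of these cells in the Rtel1 levels was not tested.

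The 5 named protein-coding genes most like Rtel1 over the 6 arrays were taken by the root mean square difference of log2 levels, after each probe set was centred on its own mean. Among 15068 probe sets they were Galnt5 (0.16), Ptpa (0.17), Tmeff2 (0.17), Lrrn3 (0.17) and Col8a1 (0.18). Galnt5, an enzyme that starts mucin-type glycans, lay at 2.94, 3.20 and 3.80 in SHR and 1.73, 1.78 and 1.74 in WKY. Ptpa, an activator of protein phosphatase 2A, lay at 7.50, 7.44 and 7.39 in SHR and 6.07, 6.05 and 6.01 in WKY. Col8a1, a short-chain collagen of the vessel wall, lay at 6.54, 6.91 and 7.36 in SHR and 5.05, 5.40 and 5.15 in WKY. None of the 5 is in the telomere lists. Galnt5 and Ptpa lie on chromosome 3, as Rtel1 does, and Tmeff2, Lrrn3 and Col8a1 on chromosomes 9, 6 and 11. Whether position bears on the likeness was not tested. A measure over 6 arrays in 2 strains picks genes with a strain difference of like size.

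**Figure D5:**
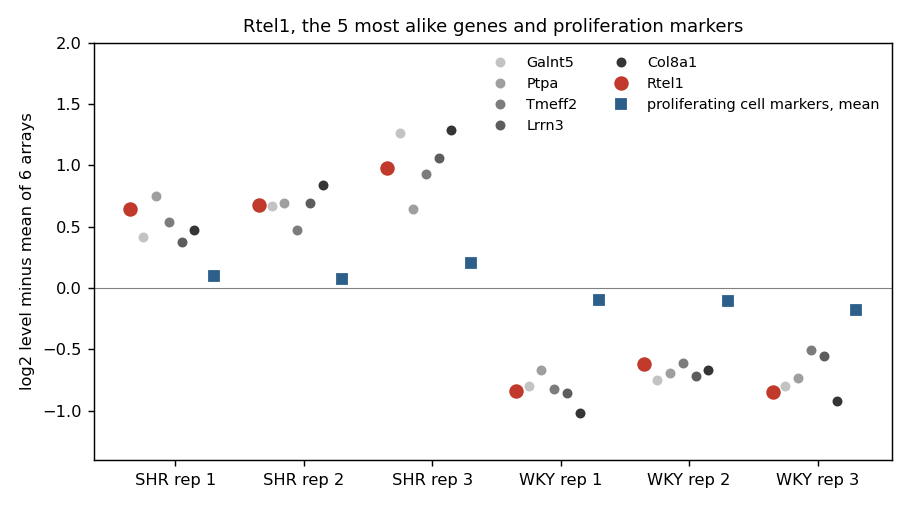
Log2 level minus the mean of the 6 arrays, per array, for Rtel1 (red), the 5 genes most like it (grey) and the mean of 11 proliferation markers (blue squares). The 6 genes are above 0 on all SHR arrays and below 0 on all WKY arrays, and the proliferation markers lie on the same sides of 0 over a narrower range.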

How the data were processed

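Per the submitters' processing notes, the authors made the deposited log2 values in Affymetrix Expression Console 1.2.1 by RMA. That method subtracts background, equalizes the distributions of arrays and fits 1 value per probe set. The deposited distributions were not equal, with a median of 2.52 on WKY replicate 3 and 2.29 to 2.33 on the other arrays. The base follows from RMA and the range of values. No source used here gives the annotation version, the build or detection calls. The table holds 28879 probe sets on 6 arrays, grouped by title. The platform annotation gave 18511 probe sets 1 symbol, 575 several and 9793 none, and 18394 of the first matched the RefSeq gene table (GRCr8) by Entrez identifier and took its symbol.

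The 21659 probe sets whose mean reached the 25th percentile (log2 level 1.17) entered limma 3.58.1 under R 4.3.3 (lmFit, then eBayes), with strain as the only term, two-sided tests and Benjamini-Hochberg adjustment over all of them. The brightest probe set stood for a gene with several. The fit was tested on simulated data. Named were all members, the 3 non-members of each list with the smallest unadjusted p, the neighbours and the most alike genes. Of the smooth muscle markers Myh11 and Tagln were named. Ciao1, Rad50, Nbn and the markers of cells other than smooth muscle were named after their values were seen. The members and lists were chosen with earlier results of these data known. The number of arrays limits the precision. Alternatives were a replicate block, other filters, normalizations and variance models, array weights, leaving out arrays, and averaging probe sets.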

Additional observations from a re-analysis of the deposited data

How the results depend on the processing

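The difference of Rtel1 lay between 1.43 and 1.61 under every alternative run and moved by less than its spread between arrays. Under the same alternatives 0 of the 6 other measured members, 0 of the tested pathway genes and 0 of the tested neighbours were called by limma. The number of called probe sets in the whole table was 15. It was 65 with array weights, 3 with a replicate block, and 2 to 5 with each array left out in turn. It was 115 when the 2 arrays of lowest weight, SHR replicate 1 and WKY replicate 3, were dropped together. That setting was added after the data had been seen. Fits with arrays left out hold fewer arrays, and why the count moved was not tested. Deviations from the strain means of same-numbered arrays correlated at 0.35, -0.08 and 0.23, and those of arrays with unlike numbers at -0.32 to 0.17. These values do not settle whether the numbers pair the samples. No label states a pairing, so the main fit had no block, and the block gave Rtel1 the same 1.54.

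The signs of small, uncalled differences changed as follows, and the cause was not tested. With array weights the differences were -0.061 for Terf1, -0.15 for Terf2, -0.16 for Pot1, -0.14 for Tinf2, -0.22 for Acd, -0.24 for Pot1b and 0.13 for Arfrp1. With those 2 arrays dropped they were -0.10 for Terf1, -0.20 for Terf2, -0.14 for Pot1, -0.17 for Tinf2, -0.27 for Acd, -0.30 for Pot1b, 0.011 for Ciao3, 0.051 for Pif1, 0.0026 for Mus81, 0.18 for Arfrp1 and 0.074 for Abhd16b. A further quantile normalization gave Terf1 -0.011, and median centring gave Gmeb2 0.035 and Arfrp1 0.036. With each array left out in turn the differences ran from -0.074 to 0.19 for Tert, -0.053 to 0.076 for Terf1, -0.14 to 0.24 for Terf2, -0.17 to 0.17 for Pot1, -0.21 to 0.20 for Tinf2, -0.22 to 0.21 for Acd, -0.19 to 0.26 for Pot1b, -0.31 to 0.027 for Pif1, -0.20 to 0.11 for Gmeb2, -0.11 to 0.10 for Arfrp1 and -0.26 to 0.060 for Zbtb46. Signal over background is unknown, which limits the dim genes Tert, Pot1b, Recql4, Ptk6, Stmn3 and Abhd16b. The same holds for the proliferation markers Top2a, Ccnb1, Cdk1, Rrm2 and Aurkb.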
